A study of Mus musculus with 16 samples.

Results

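Knockdown of Kdm7a during morphine withdrawal was examined by comparing the medial prefrontal cortex (mPFC) of Kdm7a-shRNA + Morphine mice with that of Ctrl + Morphine mice. Mice were chosen by the virus and the treatment that the labels give, which took 4 mice of each group, 8 of the 16 mice sequenced. Genes were taken from the entries listed as known genes, 19069 of the 26625 entries counted, and 14162 of them had enough reads to be tested. The study used male C57BL/6 mice of 8 to 10 weeks and asked whether the histone demethylase KDM7A takes part in morphine reward memory. In the Kdm7a-shRNA + Morphine group, an adeno-associated virus with 1 short hairpin RNA against Kdm7a had been injected into the mPFC of both sides. The Ctrl + Morphine group had received the control virus in the same way. All 8 mice were then conditioned with morphine at 10 mg/kg and with saline in turn over 10 days, and the tissue was taken on withdrawal day 7. The hairpin was driven by the U6 promoter and the EGFP reporter by CMV, neither of them specific to neurons. Which cells expressed the hairpin was not tested, and the samples were whole mPFC tissue.

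RNA was read as full-length cDNA on a Nanopore sequencer, and the deposited value of a gene is its number of reads. The library totals of the 8 mice ran from 6596991 to 12418112 counts. Values per mouse are given as normalized CPM, the counts scaled to a common library total (CPM) after correction by the TMM factor. The mice of the Ctrl + Morphine group are called Ctrl 1 to Ctrl 4 and those of the Kdm7a-shRNA + Morphine group shRNA 1 to shRNA 4. Fold changes are knockdown over control. A gene was called higher or lower when edgeR's quasi-likelihood test gave an adjusted p under 0.05 and the change was 1.5 times or more. SE is the standard error of a log2 fold change. The reads were amplified by PCR, so their precision covers counting error only.

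KDM7A removes methyl groups from lysine residues of histone H3 that are associated with silent chromatin, and it belongs to the KDM7 subfamily together with PHF8 and PHF2. The mPFC holds pyramidal neurons, several classes of inhibitory interneurons, astrocytes, oligodendrocytes and microglia, and it takes part in the memory of drug reward. Fscn1 encodes fascin, a protein that packs actin filaments into the parallel bundles of filopodia.

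Kdm7a was lower in most of the knockdown mice, with values that met those of the controls. The gene lies on chromosome 6 from 39136623 to 39206789 of GRCm38 (mm10). Its normalized CPM was 7.79, 6.19, 8.89 and 8.02 in Ctrl 1 to 4 and 6.28, 4.44, 3.01 and 6.04 in shRNA 1 to 4. The lowest value was that of shRNA 3, while shRNA 1 was level with Ctrl 2, so the groups overlapped. Knockdown over control was -0.67 on the log2 scale (SE 0.206, adjusted p = 0.0506), and Kdm7a was not called. It was called without Ctrl 2 (adjusted p = 0.0339), without shRNA 1 (adjusted p = 0.0431) and without shRNA 4 (adjusted p = 0.0282), and it was not called when any of the other 5 mice was left out (adjusted p = 0.0928 to 0.167). Without shRNA 3 the log2 fold change was -0.47. Other tests, filters, scalings and sets of genes or mice, below called alternatives, called Kdm7a in 3 of 10 cases. In the saline mice, which are different animals, Kdm7a was called lower without overlap of the groups (log2 fold change -0.76, adjusted p = 0.0153), and the interaction was 0.10 (adjusted p = 0.945). Of the other members of the subfamily, which remove the same or related marks, Phf8 was at 6.43 ± 1.202 in the Ctrl group and 6.15 ± 1.32 in the shRNA group (SD, n = 4 each) and Phf2 at 4.61 ± 1.597 and 5.57 ± 0.765. Neither was called, with adjusted p-values of 0.916 and 0.501.

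Fscn1 fell with the knockdown. Its normalized CPM was 90.2, 67.5, 55.6 and 98.5 in Ctrl 1 to 4 and 33.4, 46.5, 36.9 and 46.3 in shRNA 1 to 4. Every knockdown mouse was below every control mouse, and Ctrl 1 and Ctrl 4 were the highest. Knockdown over control was -0.94 on the log2 scale (SE 0.190, adjusted p = 0.00770), and the gene was called with any single mouse left out and in 10 of 10 alternatives. In bulk samples fewer cells of a type and less RNA per cell cannot be told apart. In the saline mice the log2 fold change of Fscn1 was 0.09 (adjusted p = 0.785). The difference between both fold changes, -1.02, did not pass its own test (interaction, adjusted p = 0.141). Among 11 tested genes of actin bundling proteins, the only other call was the leukocyte plastin Lcp1, which was higher (log2 fold change 1.30, adjusted p = 0.0379). That call was lost without Ctrl 2, 3 or 4 or shRNA 1 or 3 (adjusted p = 0.0722 to 0.166; called in 6 of 10 alternatives). Gapdh, the glycolytic enzyme often used as a reference, was at 15047 ± 1435 and 16602 ± 923 (SD, n = 4 each) and was not called (adjusted p = 0.464).

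**Figure D1:**
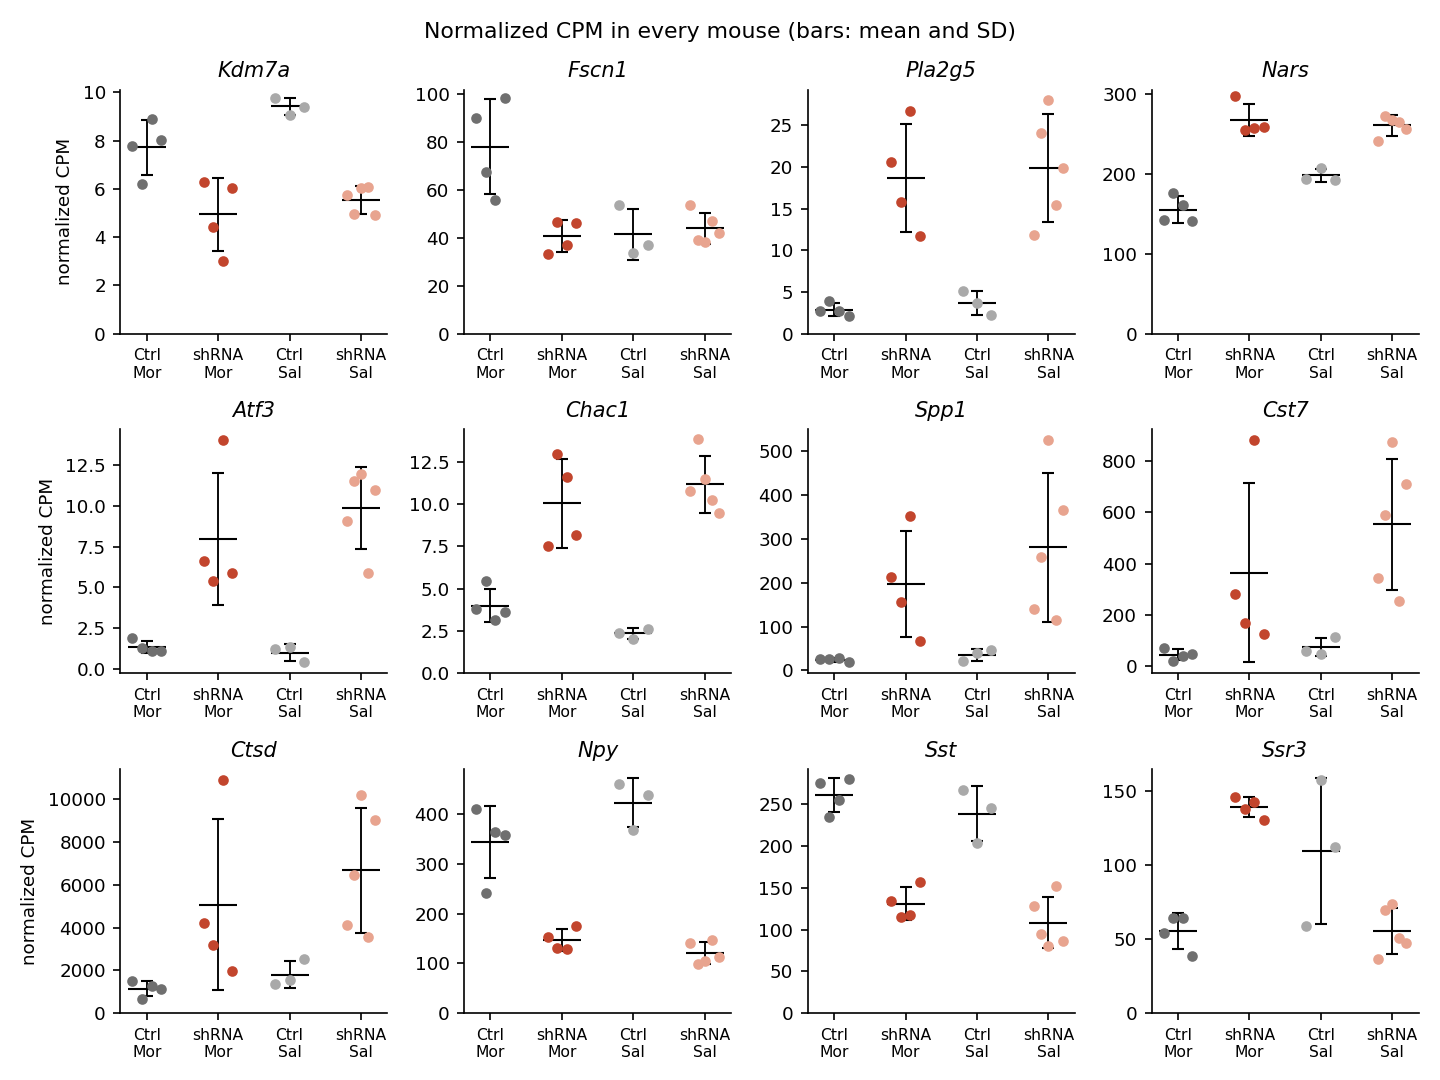
Normalized CPM (vertical axis) of 12 genes in every mouse, with morphine groups on the left and saline groups on the right of each panel; points are mice and bars the mean and SD. In the morphine mice the groups overlap for Kdm7a and are apart for the other 11 genes, and among them shRNA 3 is highest for Atf3, Spp1, Cst7 and Ctsd.

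Across all known genes the changes were mostly increases. Of the 14162 tested known genes, 657 were called (4.64%), 477 higher (3.37%) and 180 lower (1.27%), and 3074 had an unadjusted p under 0.05. The median log2 fold change of the known genes was 0.04. Among all 18826 entries tested, which include loci assembled by the authors, 1448 were called (7.69%), 538 higher (2.86%) and 910 lower (4.83%). With library size alone as the scaling, which moved the median of all tested genes by -0.11, there were 354 higher and 370 lower calls, so the excess of increases was not seen under that scaling. In 493 of the called genes the 4 knockdown mice did not overlap the 4 controls, 339 above and 154 below, against 11.9% of the known genes tested (7.08% above, 4.82% below). The number of calls depended on single mice. It was 442 without Ctrl 1, 603 without Ctrl 2, 367 without Ctrl 3 and 218 without Ctrl 4. It was 408 without shRNA 1, 631 without shRNA 2, 221 without shRNA 3 and 1194 without shRNA 4. A core of 148 genes, 99 higher and 49 lower, was called in the full data and in all 8 of these reduced sets.

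The libraries were also not equally far apart. On the first principal component, which held 39.8% of the variance, the scores were -6.42, -43.3, -18.7 and -25.1 in Ctrl 1 to 4 and 30.7, 15.7, 62.3 and -15.2 in shRNA 1 to 4. The groups overlapped there through shRNA 4, which lay below Ctrl 1, and shRNA 3 was the mouse farthest from the controls. Values of shRNA 3 are therefore given beside the gene groups in which it stands apart.

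**Figure D2:**
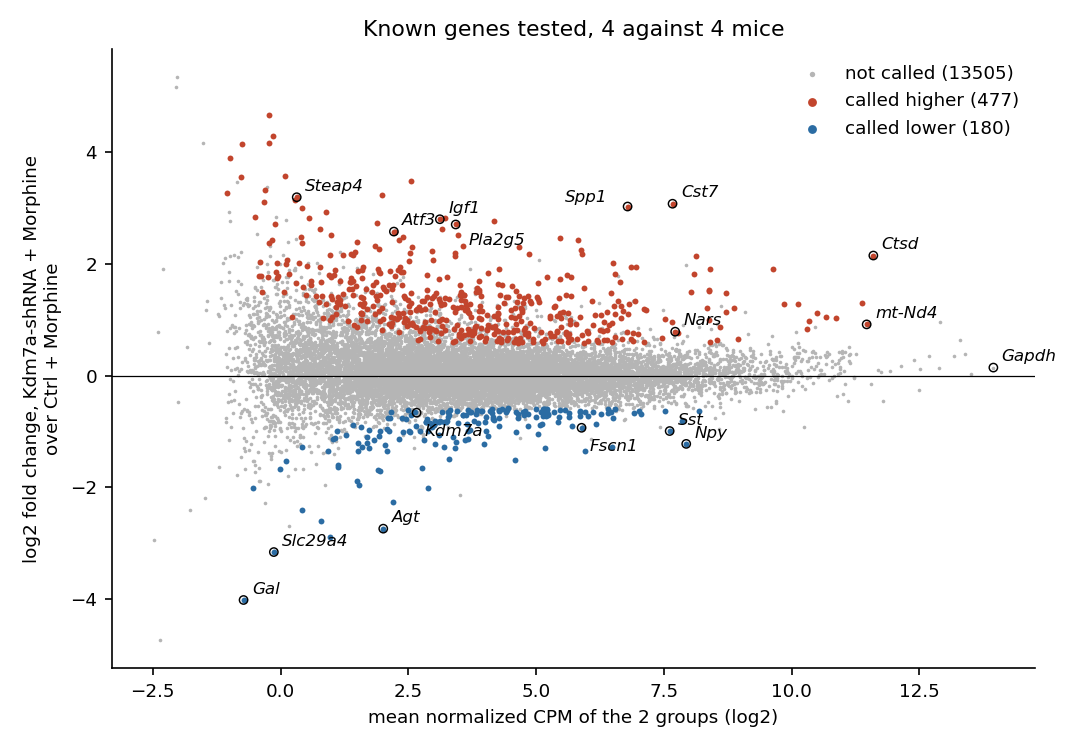
Log2 fold change of knockdown over control (vertical axis) against the mean normalized CPM on a log2 scale (horizontal axis) for the 14162 known genes tested, each a point. Red points are the 477 genes called higher, blue points the 180 called lower, and circles mark genes named in the text; the increases reach abundant genes such as Ctsd and mt-Nd4.

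Ranked by adjusted p, the first 10 higher genes include those of enzymes of lipid and amino acid metabolism, a small GTPase, a stress factor and a secreted phosphoprotein. AW146154, also among them, was placed in none of these classes. Pla2g5, a secreted phospholipase A2 (chromosome 4 from 138799244 to 138863482), had 2.696, 3.95, 2.68 and 2.14 normalized CPM in Ctrl 1 to 4 and 20.5, 15.8, 26.6 and 11.7 in shRNA 1 to 4. The lowest knockdown mouse was well above the highest control (log2 fold change 2.70, SE 0.321, adjusted p = 5.96e-04). Nars, which charges tRNA with asparagine, had 142, 176, 161 and 141 in the controls and 298, 256, 257 and 259 after knockdown. All knockdown mice were above all controls, shRNA 1 being the highest (0.78 on the log2 scale, SE 0.0952, adjusted p = 6.43e-04). Arl2, a GTPase of tubulin folding and mitochondrial function, had 60.2, 67.1, 56.6 and 59.2 and 118, 109.8, 111 and 90.3, again without overlap (log2 fold change 0.82, SE 0.111, adjusted p = 9.22e-04). The other 7 were Atf3, Chac1, Mthfd2 and Psat1 of the amino acid stress response, the phosphoprotein gene Spp1, Agmo, which encodes an enzyme that cleaves ether lipids, and AW146154. On the log2 scale Agmo rose by 1.67 (adjusted p = 0.00283) and AW146154 by 1.39 (adjusted p = 0.00244). All 10 were called with any single mouse left out.

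The first 10 lower genes encode signalling peptides, receptors, a channel, a transporter, a spindle protein and regulators of the cell cycle and of actin. Npy, the precursor of neuropeptide Y, and Sst, that of somatostatin, are described with the neuropeptides. Cdkn1c, an inhibitor of cyclin-dependent kinases, had 11.3, 12.9, 12.2 and 15.8 normalized CPM in Ctrl 1 to 4 and 5.36, 5.64, 3.87 and 6.71 in shRNA 1 to 4. The groups were apart by more than the spread within either (log2 fold change -1.29, SE 0.180, adjusted p = 0.00105). Agt, the precursor of the angiotensin peptides and in the brain mainly a product of astrocytes, had 7.69, 2.99, 7.79 and 9.84 in the controls and 0.613, 0.839, 1.804 and 0.671 after knockdown. Ctrl 2 was the lowest control and shRNA 3 the highest knockdown mouse, and the 2 did not meet (log2 fold change -2.74, SE 0.408, adjusted p = 0.00141). Ryr1, a calcium release channel of the endoplasmic reticulum, fell by 1.16 (adjusted p = 0.00172). Mc4r, a melanocortin receptor, fell by 1.68 on the log2 scale (adjusted p = 0.00193) and Gipr, the receptor of an incretin hormone, by 1.96 (adjusted p = 0.00202). Spag5, which encodes a protein of the mitotic spindle, had 11.8 ± 2.94 and 2.89 ± 0.812 normalized CPM (SD, n = 4 each, adjusted p = 0.00281). Carmil3, a regulator of actin capping protein, had 10.6, 7.36, 10.3 and 13.2 in the controls and 1.84, 3.597, 4.38 and 3.09 after knockdown (log2 fold change -1.65, adjusted p = 0.00297). Slc29a4, a low-affinity transporter of monoamines, was read rarely, with 19, 8, 11 and 24 counts in Ctrl 1 to 4 and 1, 2, 3 and 0 in shRNA 1 to 4 (adjusted p = 0.00412). All 10 lower genes were called with any single mouse left out.

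Genes were then described in 52 lists of pathways, complexes and cell types. They held 1322 different tested genes, of which 115 were called, 90 higher and 25 lower, and the other 542 called known genes were outside every list. In 36 lists at least 1 member was called.

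Microglial genes made up the largest group of increases among the lists. Disease-associated microglia genes, which microglia turn on around damage and debris, were called higher in 18 of 22 and lower in 0, with a median log2 fold change of 1.94 against 0.04 for all known genes. Spp1, which encodes osteopontin, had 25.1, 25.2, 28.6 and 18.3 normalized CPM in Ctrl 1 to 4 and 213, 156, 353 and 66.7 in shRNA 1 to 4. Every knockdown mouse exceeded every control, shRNA 3 being the highest and shRNA 4 the lowest of its group (log2 fold change 3.02, SE 0.486, adjusted p = 0.00219). Cst7, a cystatin of the endolysosome, had 69.3, 17.7, 40.5 and 45.6 in the controls and 283, 168, 881 and 126 after knockdown, in the same order of mice. Its log2 fold change was 3.07 (adjusted p = 0.00516) and 2.15 without shRNA 3 (adjusted p = 0.0188). Clec7a, a receptor for fungal glucans, rose by 2.47 on the log2 scale (adjusted p = 0.00496). The chemokine gene Ccl6 rose by 2.76 (adjusted p = 0.00516) and by 1.93 without shRNA 3. The lipoprotein lipase gene Lpl rose by 2.31 (adjusted p = 0.00554) and by 1.63 without that mouse. These 5 genes were called with any single mouse left out, and the number of called members was 11 without shRNA 3.

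Genes listed for resting (homeostatic) microglia were called higher in part, while the markers P2ry12, Tmem119 and Csf1r, given below, were not called. Of 20 homeostatic microglia genes, 11 were called higher and 0 lower, all 20 had a positive log2 fold change, and the median was 1.27. The count was 3 higher without shRNA 3, 4 higher without Ctrl 2, 3 or 4 and 7 higher without shRNA 1. Trem2, a lipid-sensing receptor of microglia, had 129.8, 52.3, 116 and 119 normalized CPM in Ctrl 1 to 4 and 333, 242, 1046 and 217 in shRNA 1 to 4. Without overlap between the groups, shRNA 3 was several times above the other knockdown mice. Trem2 rose by 2.14 on the log2 scale (SE 0.454, adjusted p = 0.00950) and 1.34 without shRNA 3 (adjusted p = 0.0361). Its signalling partner Tyrobp rose by 1.90 (adjusted p = 0.0111) and by 1.18 without shRNA 3. The lysophosphatidylserine receptor gene Gpr34 rose by 1.83 (adjusted p = 0.00997) and by 1.19 without shRNA 3. The Fc receptor-like gene Fcrls had a log2 fold change of 1.90 (adjusted p = 0.0235), and that call was lost without Ctrl 1, 2, 3 or 4 or shRNA 3 (adjusted p = 0.0514 to 0.131; called in 9 of 10 alternatives), with a log2 fold change of 0.94 without shRNA 3.

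Among the 4 defining markers of microglia, 1 was called. Their summed normalized CPM was 289.8, 200.3, 270.4 and 265 in Ctrl 1 to 4 and 419, 339.8, 887 and 258 in shRNA 1 to 4. The sum was highest in shRNA 3, and that of shRNA 4 lay among the controls. Csf1r, the receptor of a growth factor on which microglia depend, was the most abundant in every mouse, and none of the 4 was at 0 in any mouse. Cx3cr1, the fractalkine receptor, was the 1 of the 4 that was called (log2 fold change 1.16, adjusted p = 0.0372), and its call was lost without Ctrl 1, 2, 3 or 4 or shRNA 1 or 3 (adjusted p = 0.0581 to 0.183; called in 6 of 10 alternatives). P2ry12 had a log2 fold change of 0.76 (adjusted p = 0.0879), Csf1r of 0.84 (adjusted p = 0.138) and Tmem119 of 0.47 (adjusted p = 0.473). Without shRNA 4, P2ry12 (adjusted p = 0.0380) and Csf1r (adjusted p = 0.0481) were called, and Tmem119 was at -0.10 without shRNA 3. P2ry12 was also called in 1 of 10 alternatives, that with a block for the replicate number. The part of the number of microglia in the higher levels of microglial genes was not tested.

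Markers of leukocytes from the blood were near the limit of detection. Of 6 such markers, 4 had enough reads to be tested and 0 were called by edgeR's quasi-likelihood test. Their summed normalized CPM was 3.39, 3.63, 2.7997 and 3.42 in Ctrl 1 to 4 and 5.52, 3.597, 12.97 and 2.28 in shRNA 1 to 4. The B cell marker Ms4a1 had 0 counts in all mice but Ctrl 2, and the T cell markers Cd3e and Cd8a had 2 to 33 counts. The neutrophil marker S100a8 had 83 counts in shRNA 3 and 0 to 6 in the other knockdown mice, and it made up most of the sum of that mouse. Whether blood cells contributed to the values of shRNA 3 was not tested.

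Complement genes tag material for removal by phagocytes, and antigen presentation genes display peptides to T cells. Complement components and receptors were called higher in 7 of 19 and lower in 0 (median log2 fold change 1.21). The count was 1 higher without shRNA 3, 2 higher without Ctrl 4, 4 higher without Ctrl 2 or 3 and 13 higher without shRNA 4. Clu, which encodes the chaperone clusterin and is made mainly by astrocytes, had 1334, 1299.6, 1274 and 1055 normalized CPM in Ctrl 1 to 4 and 2523, 2042, 3647 and 1899.5 in shRNA 1 to 4. All knockdown mice were above all controls (log2 fold change 1.03, SE 0.197, adjusted p = 0.00589), and Clu was called with any single mouse left out. C1qc, a chain of the complement initiator C1q, rose by 1.82 (adjusted p = 0.0160). Without shRNA 3 its log2 fold change was 1.16 (adjusted p = 0.0702), which was no longer called. Itgax, an integrin of the complement receptor family, had a log2 fold change of 2.13 (adjusted p = 0.0173), and 2.75 without Ctrl 1. It was lost without Ctrl 3 or 4 or shRNA 3 (adjusted p = 0.0506 to 0.0709; called in 8 of 9 alternatives). C3ar1, the receptor of a C3 fragment, had 1.79 (adjusted p = 0.0192) and was lost without Ctrl 4 or shRNA 3 (adjusted p = 0.0590 to 0.0959). Serping1, the inhibitor of C1, had 1.43 (adjusted p = 0.0273) and was lost without Ctrl 2 or 4 or shRNA 1 or 3 (adjusted p = 0.0550 to 0.0982; called in 7 of 10 alternatives).

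Among 24 antigen presentation genes, 3 were called higher, all of the class II pathway, and 0 lower (median log2 fold change 0.80). The count was 1 higher without Ctrl 2, 3 or 4 or shRNA 1 or 3, 5 higher without Ctrl 1 and 11 higher without shRNA 4. Cd74, the invariant chain of class II molecules, had 36.7, 8.64, 17.2 and 23.2 normalized CPM in Ctrl 1 to 4 and 224, 90.5, 51.2 and 24.8 in shRNA 1 to 4. Here shRNA 1 was the highest and shRNA 4 lay among the controls (log2 fold change 2.18, adjusted p = 0.0300). The value was 1.37 without shRNA 1, and the call was lost without Ctrl 2, 3 or 4 or shRNA 1 (adjusted p = 0.0662 to 0.141; called in 7 of 10 alternatives). H2-DMa and H2-DMb1, which load peptides on class II molecules, had log2 fold changes of 0.85 (adjusted p = 0.0126) and 1.44 (adjusted p = 0.0300). The call of H2-DMa was lost without shRNA 3 (adjusted p = 0.0539; called in 9 of 10 alternatives), and that of H2-DMb1 without Ctrl 2, 3 or 4 or shRNA 1 or 3 (adjusted p = 0.0692 to 0.127; called in 7 of 10 alternatives). Genes of this region resemble each other, and reads of close copies may have been assigned to the wrong one. Of 32 interferon-stimulated genes, edgeR's quasi-likelihood test called 0 (2 at an unadjusted p under 0.05, 0 with DESeq2, 0 with the exact test), and the smallest adjusted p was that of the membrane protein gene Ifitm3 (log2 fold change 1.24, adjusted p = 0.0970). Without shRNA 4, 2 members of that list were called, Ifitm3 being called there (adjusted p = 0.0388).

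Lysosomal genes, which encode the acid hydrolases and membrane proteins that digest engulfed material, rose in part. Of 48 tested, 14 were called higher and 0 lower, with a median log2 fold change of 0.31. The count was 2 higher without Ctrl 4 or shRNA 3, 5 higher without Ctrl 3, 7 higher without Ctrl 2, 8 higher without Ctrl 1 and 9 higher without shRNA 1. Ctsd, the protease cathepsin D, had 1493, 659, 1277 and 1147 normalized CPM in Ctrl 1 to 4 and 4202, 3196, 10883 and 1993 in shRNA 1 to 4. It was among the most abundant of the genes that rose, shRNA 3 standing far above the rest (log2 fold change 2.15, SE 0.445, adjusted p = 0.00849). Without shRNA 3 the log2 fold change of Ctsd was 1.45 (adjusted p = 0.0328). Ctsz, another cathepsin, rose by 1.93 (adjusted p = 0.0110), by 1.24 without that mouse, and like Ctsd it was called with any single mouse left out. Tfeb, the transcription factor that turns on lysosomal genes, had 7.09, 3.09, 5.72 and 5.03 in the controls and 13.6, 13.2, 14.5 and 8.72 after knockdown. In this gene shRNA 3 was close to shRNA 1 and shRNA 2 (log2 fold change 1.26, adjusted p = 0.0160), and the call was lost without Ctrl 4 or shRNA 3 (adjusted p = 0.0519 to 0.0532). Ctsa rose by 1.20 (adjusted p = 0.0196) but not without Ctrl 4 or shRNA 3 (adjusted p = 0.0662 to 0.0763; called in 9 of 10 alternatives). Npc2, which carries cholesterol out of the lysosome, rose by 1.27 (adjusted p = 0.0231), and its call was lost without Ctrl 2, 3 or 4 or shRNA 3 (adjusted p = 0.0529 to 0.105; called in 9 of 10 alternatives). Several of these genes are also members of the microglial lists.

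Some reactive astrocyte genes rose, while the markers of astrocytes themselves were not called. Among 23 genes that astrocytes turn on after injury, 10 were called higher and 1 lower, with a median log2 fold change of 1.14. The log2 fold changes ran from -0.70 to 3.24, and that of Gfap, the most abundant of the list, was 0.61. The count was 4 higher without shRNA 3, 5 higher without Ctrl 3, 6 higher without Ctrl 2 and 0 lower without Ctrl 1, 3 or 4 or shRNA 1, 2 or 3. Vim, the intermediate filament protein vimentin, had 29.7, 14.2, 20.4 and 18.2 normalized CPM in Ctrl 1 to 4 and 73.5, 61.99, 211 and 43.5 in shRNA 1 to 4. The groups did not overlap and shRNA 3 was again the highest (log2 fold change 2.25, SE 0.454, adjusted p = 0.00754, and 1.53 without shRNA 3). S1pr3, a receptor for sphingosine phosphate, had 2.796, 1.39, 1.096 and 0.963 and 9.19, 4.68, 15.6 and 4.03, with all 4 knockdown mice above all controls (log2 fold change 2.42, adjusted p = 0.00472). Osmr, a subunit of the oncostatin M receptor, rose by 2.31 (adjusted p = 0.00682). Steap4, a metalloreductase gene, had 2, 3, 1 and 3 counts in Ctrl 1 to 4 and 9, 17, 51 and 9 in shRNA 1 to 4 (adjusted p = 0.00616). These 4 were called with any single mouse left out. Tm4sf1, a membrane protein gene, rose by 1.29 (adjusted p = 0.0120), a call lost without shRNA 3 (adjusted p = 0.0505).

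Genes of astrocytes in general were mixed, where 3.37% of the known genes were called higher and 1.27% lower. Of 21 tested, 2 were called higher and 1 lower, a median of 0.20, and the count was 1 higher without Ctrl 2, 3 or 4 or shRNA 1 or 3, 4 higher without shRNA 2, 6 higher without shRNA 4 and 2 lower without Ctrl 2 or shRNA 3. The higher ones were Clu and Gpr37l1, an orphan receptor gene (log2 fold change 0.77, adjusted p = 0.0417), the latter lost without Ctrl 2, 3 or 4 or shRNA 1, 2 or 3 (adjusted p = 0.0525 to 0.170; called in 5 of 10 alternatives). The lower one was Agt, given above. The summed level of the 4 astrocyte markers Aqp4, Slc1a3, Aldh1l1 and Gja1 was 241, 202, 228 and 172 normalized CPM in Ctrl 1 to 4 and 289, 260.1, 436 and 249 in shRNA 1 to 4. Every knockdown mouse was above every control in this sum, none of the 4 was at 0 in any mouse, and 0 were called in edgeR's quasi-likelihood test. Slc1a3, a glutamate transporter, had an adjusted p of 0.0341 with a fold change short of 1.5. The part of the number of astrocytes in these values was not tested.

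Genes of other supporting cells had 1 to 3 calls in each list given here, all higher, where 3.37% of the known genes were called higher. Of 28 endothelial and mural cell genes, 3 were called higher (median 0.45), and the count was 0 higher without shRNA 3, 1 higher without Ctrl 4 and 8 higher without shRNA 4. They were the junction genes Esam (log2 fold change 0.67, adjusted p = 0.0125) and Pecam1 (0.78, adjusted p = 0.0323) and the membrane protein gene Itm2a (0.66, adjusted p = 0.0197). Esam was lost without shRNA 3 (adjusted p = 0.0548; called in 9 of 10 alternatives), Pecam1 without Ctrl 1, 2 or 4 or shRNA 1 or 3 (adjusted p = 0.0663 to 0.137; called in 7 of 10 alternatives), and Itm2a without Ctrl 4 or shRNA 3 (adjusted p = 0.0679 to 0.0805; called in 8 of 10 alternatives). The summed level of the endothelial markers Cldn5, Pecam1 and Flt1 was 53.7, 46.95, 61.8 and 47.1 in Ctrl 1 to 4 and 62.7, 54.8, 93.3 and 45.4 in shRNA 1 to 4, groups that overlapped. Cldn5 was the most abundant of the 3 in the controls and Pecam1 in the knockdown mice, and none was at 0. Among 24 oligodendrocyte and myelin genes, 1 was called higher, Opalin, a glycoprotein gene of myelin (log2 fold change 1.02, adjusted p = 0.0469). It was lost without Ctrl 1, 2, 3 or 4 or shRNA 1, 2 or 3 (adjusted p = 0.0587 to 0.160; called in 6 of 10 alternatives). The list's median was 0.34. Of 6 choroid plexus and ependymal genes, 1 was called, the chemoattractant gene Rarres2 (log2 fold change 1.40, adjusted p = 0.0360), and it was lost without Ctrl 2, 3 or 4 or shRNA 1, 2 or 3 (adjusted p = 0.0568 to 0.128; called in 8 of 10 alternatives). The median of these 6 was 1.20. Without Ctrl 1 or shRNA 4, 2 of that list were called.

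**Figure D3:**
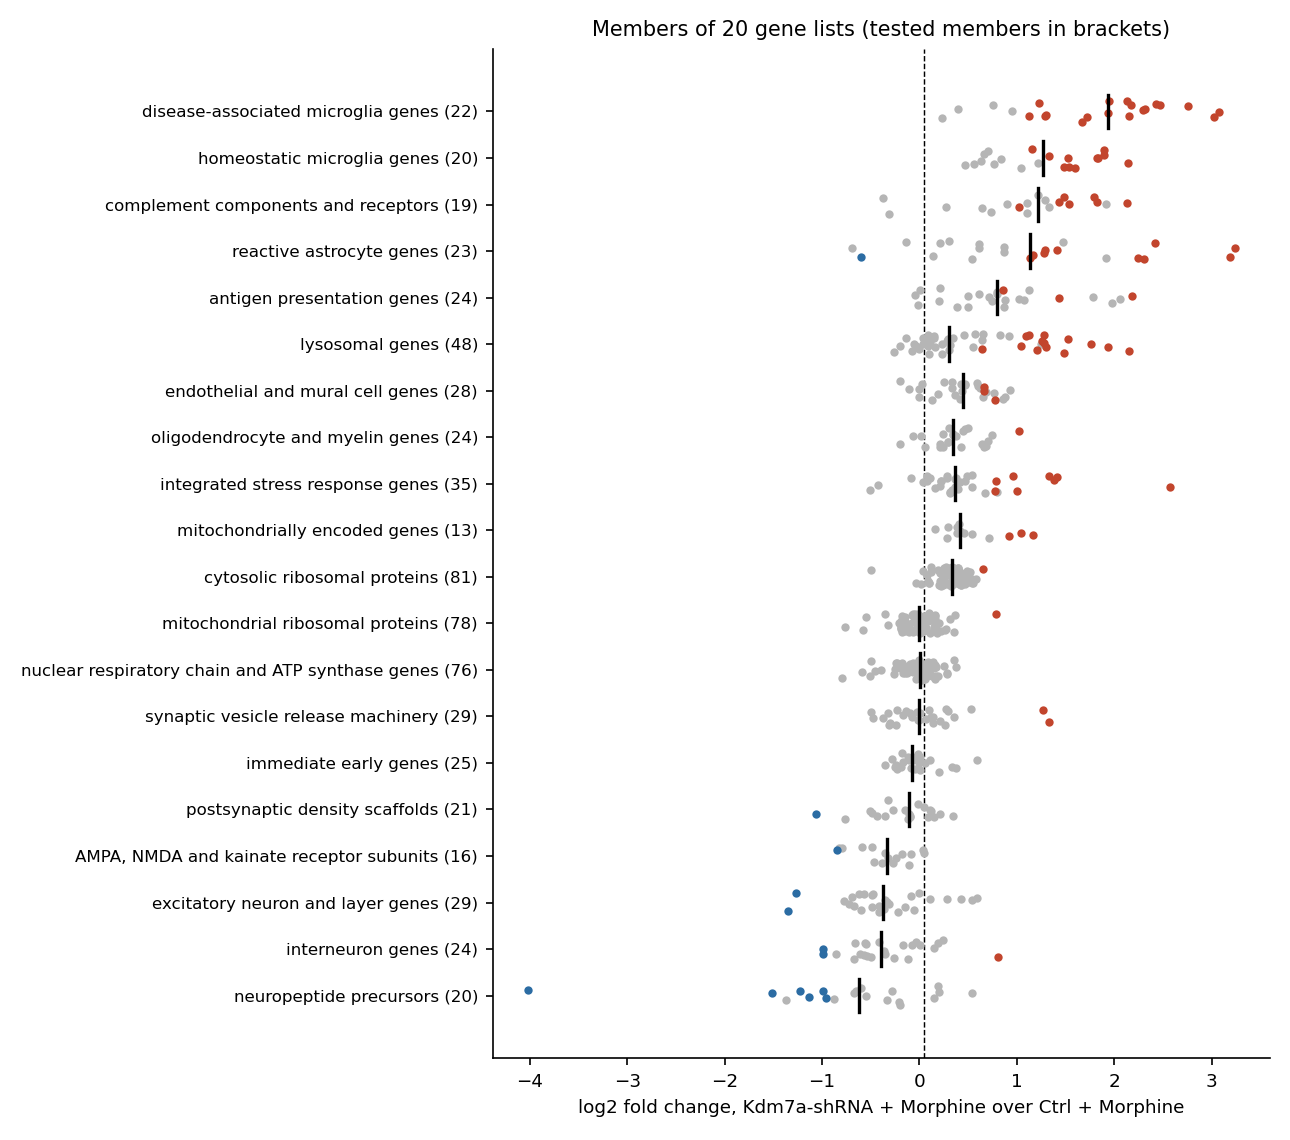
Log2 fold change of knockdown over control (horizontal axis) for the tested members of 20 gene lists (vertical axis); points are genes, red called higher, blue called lower and grey not called, black bars are list medians and the dashed line the median of all known genes. Medians run from 1.94 in disease-associated microglia genes to -0.62 in neuropeptide precursors.

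Some genes of the integrated stress response, which cells turn on through the factor ATF4 when amino acids are short or proteins misfold, were called higher. Of 35 tested, 8 were called higher and 0 lower, the median was 0.37, and the number of calls stayed between 6 and 10 when any single mouse was left out. Atf3, a transcription factor of the stress response, had 1.897, 1.28, 1.096 and 1.07 normalized CPM in Ctrl 1 to 4 and 6.59, 5.396, 14.01 and 5.904 in shRNA 1 to 4. Apart from shRNA 3, the knockdown mice lay close together, above all controls (log2 fold change 2.58, SE 0.365, adjusted p = 0.00105). Chac1, an enzyme that degrades glutathione, had 3.79, 5.44, 3.16 and 3.64 in the controls and 7.51, 12.9, 11.6 and 8.19 after knockdown, without overlap (log2 fold change 1.33, SE 0.214, adjusted p = 0.00219). Mthfd2, of mitochondrial folate metabolism, rose by 1.38 (adjusted p = 0.00323) and Psat1, of serine synthesis, by 0.96 (adjusted p = 0.00344). Nars, given above, is also a member. The remaining 3 called members, looked up after the values were seen, were the transcription factor Ddit3, the leucine sensor Sesn2 and the chromatin protein Nupr1. Nupr1 rose by 1.41 (adjusted p = 0.0346). Nupr1 and Sesn2 were called in 2 and Ddit3 in all of the 8 sets without 1 mouse.

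The promoters of these genes were searched for the core of the amino acid response element, TGATGCAA, on both strands of 300 bases around each start (RefSeq, GRCm38.p6). It was found in 294 of 32851 promoters (0.895%), in 7 of the 32 list members with a promoter sequence, and in 3 of the 7 called ones. A match is a description of the letters only. The 3 are shown on the gene's own strand, 5′ to 3′, with the match, which here reads as the reverse complement TTGCATCA, in capitals. The promoter of Chac1 is chr2:119350992-119351291 (plus strand), that of Atf3 chr1:191183284-191183583 (minus strand) and that of Nupr1 chr7:126625421-126625720 (minus strand).
Chac1: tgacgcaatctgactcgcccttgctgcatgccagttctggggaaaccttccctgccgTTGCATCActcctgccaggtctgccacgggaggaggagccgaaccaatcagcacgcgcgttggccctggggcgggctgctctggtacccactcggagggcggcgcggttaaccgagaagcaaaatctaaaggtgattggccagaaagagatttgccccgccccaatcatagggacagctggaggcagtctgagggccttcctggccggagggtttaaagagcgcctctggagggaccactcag
Atf3: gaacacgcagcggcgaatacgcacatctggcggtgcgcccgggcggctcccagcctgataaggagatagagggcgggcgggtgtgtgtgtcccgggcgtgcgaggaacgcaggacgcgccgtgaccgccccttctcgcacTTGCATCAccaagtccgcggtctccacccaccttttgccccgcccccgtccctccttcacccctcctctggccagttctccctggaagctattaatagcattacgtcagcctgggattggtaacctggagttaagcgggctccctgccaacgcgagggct
Nupr1: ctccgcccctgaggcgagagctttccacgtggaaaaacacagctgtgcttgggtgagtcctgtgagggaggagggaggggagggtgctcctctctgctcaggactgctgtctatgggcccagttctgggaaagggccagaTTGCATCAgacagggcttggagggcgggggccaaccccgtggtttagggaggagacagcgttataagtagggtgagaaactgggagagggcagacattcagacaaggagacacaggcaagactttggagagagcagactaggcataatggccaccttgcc

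Neighbouring systems of protein synthesis and folding had 1 to 3 calls in each list, where 4.64% of the known genes were called. Of 23 cytosolic aminoacyl-tRNA synthetases, which charge tRNAs for translation, Nars was the 1 called, and without Ctrl 2 there were 2. The list's median was 0.14. Among 42 translation initiation factors, 1 was called, Eif4ebp1, which encodes the cap-binding inhibitor 4E-BP1 and rose by 0.90 (adjusted p = 0.0207). That call was lost without Ctrl 4 or shRNA 2 or 3 (adjusted p = 0.0547 to 0.0789). Of 44 genes of endoplasmic reticulum chaperones and the unfolded protein response, 2 were higher and 1 lower (median 0.01). Ssr3, a subunit of the translocon-associated complex, had 54.4, 64.3, 64.5 and 38.9 normalized CPM in Ctrl 1 to 4 and 146, 138, 143 and 131 in shRNA 1 to 4. The 4 knockdown values were nearly equal, all above the controls (log2 fold change 1.33, SE 0.251, adjusted p = 0.00554). Edem1, of the degradation of misfolded glycoproteins, rose by 1.25 (adjusted p = 0.0455), and its call was lost without Ctrl 2, 3 or 4 or shRNA 1 or 3 (adjusted p = 0.0713 to 0.246; called in 4 of 10 alternatives). Creld2, a chaperone gene of the same compartment, fell by 0.63 on the log2 scale (adjusted p = 0.0314), a call lost without Ctrl 1 or 4 or shRNA 1 or 3 (adjusted p = 0.0707 to 0.115; called in 9 of 10 alternatives), and without shRNA 2 another member was also lower. Of 29 cytosolic chaperones, the co-chaperone gene Bag3 was called (log2 fold change 1.11, adjusted p = 0.0264), but not without Ctrl 2, 3 or 4 or shRNA 3 (adjusted p = 0.0532 to 0.130; called in 7 of 10 alternatives), and without shRNA 4 there were 2.

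Neuropeptide precursors, from which secreted signals of neurons are cut, had calls in 1 direction only. Of 20 tested, 6 were called lower and 0 higher, the median log2 fold change was -0.62, and the number of calls was between 4 and 8 with any single mouse left out. Npy had 411, 242, 365 and 358 normalized CPM in Ctrl 1 to 4 and 154, 131, 129 and 175 in shRNA 1 to 4. Even Ctrl 2, the lowest control, was above all 4 knockdown mice (log2 fold change -1.22, SE 0.166, adjusted p = 9.22e-04). Sst, which marks a large class of cortical interneurons, had 275, 235, 254 and 279.9 in the controls and 135, 115, 117 and 157 after knockdown. Both groups were narrow and far apart (log2 fold change -0.99, SE 0.175, adjusted p = 0.00412). Cort, whose product cortistatin is related to somatostatin, had 22.9, 11.4, 18.02 and 18.1 and 5.82, 9.11, 6.87 and 10.2, without overlap (log2 fold change -1.14, adjusted p = 0.00920). Grp, the gastrin-releasing peptide, had 29.4, 34.999, 27.4 and 50.5 in the controls and 6.28, 14.5, 6.36 and 22.9 after knockdown. Every knockdown mouse was below every control (log2 fold change -1.51, adjusted p = 0.0135), and its call was lost without Ctrl 4 (adjusted p = 0.0548). Gal, the precursor of galanin, had 17, 2, 11 and 13 counts in Ctrl 1 to 4 and 0, 1, 1 and 0 in shRNA 1 to 4 (adjusted p = 0.0117), values near the limit of detection. The sixth was Nppc, a natriuretic peptide gene (log2 fold change -0.96, adjusted p = 0.0378), named after its values were seen and called in 2 of the 8 sets without 1 mouse.

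The cAMP response element TGACGTCA, the same on both strands, was found in 588 of the 32851 promoters (1.79%), in 3 of 23 neuropeptide promoters and in 1 of the 5 called genes with a promoter sequence, that of Sst. It lies at chr16:23890795-23891094 (minus strand, GRCm38.p6) and is shown 5′ to 3′ with the element in capitals.
Sst: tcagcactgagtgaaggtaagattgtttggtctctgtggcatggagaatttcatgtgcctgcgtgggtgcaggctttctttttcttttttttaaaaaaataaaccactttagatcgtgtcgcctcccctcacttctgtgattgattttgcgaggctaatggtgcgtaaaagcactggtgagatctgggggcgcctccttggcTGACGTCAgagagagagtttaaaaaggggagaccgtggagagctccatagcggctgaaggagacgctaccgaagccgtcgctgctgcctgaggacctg

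Interneuron genes had calls in both directions, where 3.37% of the known genes were called higher and 1.27% lower. Of 24 tested, 2 were called lower, 1 was called higher, and the median was -0.39. The lower ones were Sst and Reln, the secreted glycoprotein reelin (log2 fold change -0.98, adjusted p = 0.0440), the latter lost without Ctrl 1 or 4 or shRNA 1, 2 or 3 (adjusted p = 0.0800 to 0.144; called in 7 of 10 alternatives). Without shRNA 4, 5 were lower. Pvalb, the calcium buffer parvalbumin of fast-spiking interneurons, had 42.1, 71.5, 59.4 and 48.1 normalized CPM in Ctrl 1 to 4 and 123, 82.4, 98.03 and 84.1 in shRNA 1 to 4. Every knockdown mouse was above every control (log2 fold change 0.81, SE 0.180, adjusted p = 0.0118) and was called with any single mouse left out. The markers Gad1, Gad2 and Slc32a1, needed for GABA synthesis and loading, summed to 154, 176, 127 and 148 in Ctrl 1 to 4 and 169.9, 135, 119 and 174 in shRNA 1 to 4. The groups overlapped in this sum, Gad1 was the most abundant, none was at 0, and 0 of the 3 were called in edgeR's quasi-likelihood test. The sum mostly follows Gad1, and the 3 differed. On the log2 scale Gad1 was at 0.01 (adjusted p = 0.978), Gad2 at -0.57 (adjusted p = 0.0798) and Slc32a1 at 0.15 (adjusted p = 0.672).

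The calls among pyramidal neuron and layer genes were both lower. Of 29 tested, 2 were called lower and 0 higher (median -0.37), where 1.27% of the known genes were called lower. Crym, a thyroid hormone binding protein of deep layers, had 112, 117, 123 and 153 normalized CPM in Ctrl 1 to 4 and 42.8, 58.03, 28.1 and 81.2 in shRNA 1 to 4. The groups did not overlap (log2 fold change -1.27, adjusted p = 0.0164), and the call was lost without Ctrl 4 or shRNA 3 (adjusted p = 0.0528 to 0.0577). Rbp4, a retinol carrier of layer 5 neurons, had a log2 fold change of -1.35 (adjusted p = 0.0349) and was lost without Ctrl 1, 3 or 4 or shRNA 1 or 3 (adjusted p = 0.0576 to 0.108; called in 9 of 10 alternatives). Slc17a7, the vesicular glutamate transporter of pyramidal neurons, had 422, 553, 422 and 475 in Ctrl 1 to 4 and 346, 358, 369 and 434 in shRNA 1 to 4. The groups overlapped through shRNA 4, and the gene was not called (adjusted p = 0.266). Camk2a, a kinase of excitatory synapses, had 515, 911, 688 and 647 in the controls and 509, 466, 433 and 967 after knockdown. Knockdown mice 1 to 3 were below all controls, shRNA 4 was the highest of the 8, and Camk2a was not called (adjusted p = 0.647). The part of neuron numbers was not tested.

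Receptors, synaptic scaffolds and release genes had 1 or 2 calls in each list, where 4.64% of the known genes were called. Among 16 AMPA, NMDA and kainate receptor subunits, which carry fast excitatory transmission, 1 was called lower, the kainate receptor gene Grik1 (log2 fold change -0.85, adjusted p = 0.0213), and it was lost without Ctrl 1 or 4 or shRNA 3 (adjusted p = 0.0532 to 0.0805). The median of the subunits was -0.34, and without shRNA 4 there were 2 calls. Of 21 scaffolds of the postsynaptic density, Homer2, a linker of glutamate receptors, was called lower (log2 fold change -1.07, adjusted p = 0.0346), but not without Ctrl 1, 2, 3 or 4 or shRNA 1 or 3 (adjusted p = 0.0577 to 0.115; called in 8 of 10 alternatives). The scaffolds' median was -0.11, and without shRNA 4 there were 2 calls. Of 29 genes of vesicle release, 2 were called higher. Vamp1, the vesicle SNARE synaptobrevin 1, had 13.98, 25.7, 14.9 and 12.3 normalized CPM in Ctrl 1 to 4 and 53.8, 37.6, 51.2 and 25.2 in shRNA 1 to 4. It was called with any single mouse left out (log2 fold change 1.33, SE 0.255, adjusted p = 0.00594), although Ctrl 2 was level with shRNA 4. Syt2, a fast calcium sensor of release, rose by 1.27 (adjusted p = 0.0296) and was lost without Ctrl 1, 3 or 4 or shRNA 1 or 3 (adjusted p = 0.0581 to 0.104; called in 8 of 9 alternatives). Without Ctrl 2, 4 of the list were higher, and without shRNA 4, 2 were lower.

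Most of the lower calls among ion channels were of calcium channels. Over all known genes tested, 1.27% were called lower. Of 29 sodium, calcium and HCN channel genes, 3 were called lower, all pore subunits of calcium channels (median -0.14). Cacna1h, of a T-type channel opened near rest, had 18.97, 8.64, 12.5 and 18.1 normalized CPM in Ctrl 1 to 4 and 3.98, 5.88, 3.69 and 7.11 in shRNA 1 to 4. Every knockdown mouse was below every control (log2 fold change -1.50, SE 0.266, adjusted p = 0.00419). Cacna1c, of an L-type channel, had 23.7, 19.6, 20.6 and 22.8 and 9.81, 10.6, 8.25 and 15.3, also apart (log2 fold change -0.99, SE 0.199, adjusted p = 0.00754). Both were called with any single mouse left out. Cacna1b, of the N-type channel at nerve endings, fell by 0.77 (adjusted p = 0.0188), a call lost without shRNA 2 or 3 (adjusted p = 0.0511 to 0.0591). Of 44 potassium channel genes, Kcnj9, of a G protein-gated channel, was called lower (log2 fold change -0.65, adjusted p = 0.0280), but not without Ctrl 1 or 4 or shRNA 2 or 3 (adjusted p = 0.0502 to 0.0969), and without Ctrl 2 or shRNA 4 there were 2. Of 62 axon guidance genes, 2 were called lower (median -0.10), the repellent Slit1 and Robo3, a receptor of the family that binds it. Slit1 had 9.29, 10.5, 8.89 and 9.95 in the controls and 1.69, 5.16, 4.55 and 5.77 after knockdown (log2 fold change -1.15, adjusted p = 0.0213), and it was lost without Ctrl 4 or shRNA 3 (adjusted p = 0.0559 to 0.0603). Robo3 had a log2 fold change of -1.21 (adjusted p = 0.0330) and was lost without Ctrl 1, 3 or 4 or shRNA 1 or 2 (adjusted p = 0.0645 to 0.114; called in 6 of 9 alternatives). Without shRNA 4, 4 of that list were lower.

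Cytosolic ribosomal protein genes mostly had small positive changes, and 1 was called. Of 81 tested, 79 had a positive log2 fold change, the median was 0.33, and in 62 all knockdown mice were above all controls, where 7.08% of the known genes were. With library size alone the median was 0.22. Few changes reached 1.5 times: 1 gene was called, Rpl23a, a protein of the large subunit, with 389, 421, 378 and 358 normalized CPM in Ctrl 1 to 4 and 592, 582, 706 and 540.2 in shRNA 1 to 4. The groups did not overlap (log2 fold change 0.65, adjusted p = 0.00435), and it was lost without shRNA 3 (log2 fold change 0.57; called in 8 of 10 alternatives). Its call was also lost with the length trend removed and with library size alone, where the log2 fold changes were 0.51 and 0.54. Copies of ribosomal protein genes elsewhere in the genome may share its reads. The list's count was 0 higher without shRNA 3, 2 higher without shRNA 2, 3 higher without Ctrl 1 or shRNA 1 and 5 higher without shRNA 4. As a share of each library, these genes took 9.001%, 8.53%, 8.91% and 9.11% in Ctrl 1 to 4 and 9.54%, 10.002%, 11.2% and 9.76% in shRNA 1 to 4. All knockdown mice were higher, by 1.24 percentage points on average (two-sided exact permutation p = 0.0286, the smallest that 4 against 4 mice allow, adjusted p = 0.0857 over 3 shares). Without shRNA 3 the difference was smaller, at 0.880 points, with an adjusted p of 0.0429. The adjustment ranks the 3 shares together, so this lower value also depends on the other shares and does not mark a larger difference. The adjusted p was 0.0857 to 0.129 when any of the other 7 mice was left out.

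Genes encoded in the mitochondrion were called higher in part. Of 13, all had a positive log2 fold change, 3 were called higher, and the median was 0.41. The count was 0 higher without Ctrl 1 or 4 and 1 higher without shRNA 1. mt-Nd4, a subunit of complex I, had 1537, 2508, 2412 and 1410.3 normalized CPM in Ctrl 1 to 4 and 3365, 3697, 3142 and 4629.9 in shRNA 1 to 4. No knockdown mouse fell among the controls, and here shRNA 4 was the highest (log2 fold change 0.91, adjusted p = 0.0174). The call was lost without Ctrl 1 or 4 (adjusted p = 0.0536 to 0.0674). mt-Nd4l, of the same complex, rose by 1.17 (adjusted p = 0.0266) and mt-Co1, of complex IV, by 1.04 (adjusted p = 0.0317). The former was lost without Ctrl 1 or 4 or shRNA 1 (adjusted p = 0.0656 to 0.0964; called in 8 of 10 alternatives) and the latter without Ctrl 1, 3 or 4 or shRNA 1 or 4 (adjusted p = 0.0643 to 0.114; called in 8 of 10 alternatives). Copies of mitochondrial genes in the nuclear genome may share some of these reads. Together the 13 genes took 0.677%, 0.996%, 0.907% and 0.636% of the counts in Ctrl 1 to 4 and 1.24%, 1.12%, 0.975% and 1.48% in shRNA 1 to 4. The means differed by 0.399 points, and 3 knockdown mice were above the highest control (two-sided exact permutation p = 0.0571, adjusted p = 0.0857). Without shRNA 3 the difference was 0.475 points and the adjusted p 0.0429, while the adjusted p was 0.0857 to 0.129 when any of the other 7 mice was left out. Of the counts, loci assembled by the authors took 11.4%, 7.67%, 9.66% and 8.71% in Ctrl 1 to 4 and 9.5995%, 9.101%, 7.47% and 7.997% in shRNA 1 to 4, and the means of both groups differed by -0.816 points (adjusted p = 0.457).

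Nuclear genes of the mitochondrion had 0 to 3 calls in each list, where 4.64% of the known genes were called. Of 76 nuclear genes of the respiratory chain and ATP synthase, edgeR's quasi-likelihood test called 0 (13 at an unadjusted p under 0.05, 0 with DESeq2, 0 with the exact test), and without shRNA 2, 3 were lower. Cox7a2l, an assembly factor of respiratory supercomplexes, had the smallest adjusted p with a change short of 1.5 times (log2 fold change 0.37, adjusted p = 0.0106). Of 78 mitochondrial ribosomal proteins, Mrps6 was called (log2 fold change 0.79, adjusted p = 0.0207), but not without Ctrl 1, 3 or 4 or shRNA 3 (adjusted p = 0.0514 to 0.0856), and without shRNA 2, 2 others were lower. Of 36 carriers of the inner mitochondrial membrane, 3 were called higher (median 0.07). Slc25a18, a glutamate carrier found mainly in astrocytes, had 14.6, 15.2, 16.9 and 16.2 normalized CPM in Ctrl 1 to 4 and 37.8, 27.9, 72.5 and 29.4 in shRNA 1 to 4. It was called with any single mouse left out (log2 fold change 1.42, SE 0.255, adjusted p = 0.00435). Slc25a39, which carries glutathione, and Slc25a10, which carries dicarboxylates, had log2 fold changes of 0.66 (adjusted p = 0.0220) and 0.82 (adjusted p = 0.0229). The former was lost without Ctrl 1, 3 or 4 or shRNA 3 (adjusted p = 0.0531 to 0.0873; called in 9 of 10 alternatives) and the latter without Ctrl 1, 3 or 4 or shRNA 1 or 3 (adjusted p = 0.0518 to 0.102).

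Growth factors, matrix and clock genes gave isolated calls, where 4.64% of the known genes were called. Of 23 growth factors and granins, Igf1, insulin-like growth factor 1, had 1.298, 2.45, 4.99 and 0.214 normalized CPM in Ctrl 1 to 4 and 13.9, 9.59, 26.6 and 10.3 in shRNA 1 to 4. All knockdown mice were above all controls (log2 fold change 2.80, adjusted p = 0.00552, and 3.51 without Ctrl 3). Chga, the granule protein chromogranin A, had 87.9, 81.8, 66.7 and 84.6 and 47.96, 51.8, 46.8 and 47.4, a narrow group below every control (log2 fold change -0.73, SE 0.134, adjusted p = 0.00512). Of 36 matrix genes, the collagen gene Col6a1 fell by 1.30 (adjusted p = 0.00920), and like Igf1 and Chga it was called with any single mouse left out. Another collagen gene, Col11a1, had 3, 6, 2 and 2 counts in Ctrl 1 to 4 and 4, 10, 26 and 5 in shRNA 1 to 4 (adjusted p = 0.0385). It was called higher, a call lost without Ctrl 1, 3 or 4 or shRNA 2 or 3 (adjusted p = 0.0606 to 0.210; called in 6 of 8 alternatives), while 2 were lower without Ctrl 2 or 3 or shRNA 2 or 3. Of 19 glucocorticoid-responsive genes, Fkbp5, a chaperone of the glucocorticoid receptor, fell by 0.60 (adjusted p = 0.0377) and Nfkbia, the inhibitor of NF-kB, rose by 0.65 (adjusted p = 0.0485). Fkbp5 was lost without Ctrl 1, 3 or 4 or shRNA 1, 2 or 3 (adjusted p = 0.0666 to 0.116; called in 7 of 10 alternatives), and Nfkbia without Ctrl 1, 2, 3 or 4 or shRNA 1 or 3 (adjusted p = 0.0578 to 0.212; called in 4 of 10 alternatives), while without Ctrl 2, 3 were lower. Of 21 clock genes, the repressor Cry1 fell by 0.85 (adjusted p = 0.0150), but not without Ctrl 3 or 4 (adjusted p = 0.0540 to 0.0557; called in 9 of 10 alternatives), and without Ctrl 2 or shRNA 4 there were 2. Of 21 p53 target and cell cycle arrest genes, the kinase gene Plk2 fell by 0.66 (adjusted p = 0.0140), but not without Ctrl 4 or shRNA 3 (adjusted p = 0.0529 to 0.0548), and without shRNA 2, 2 were higher. Pla2g5 was the 1 called of 13 phospholipases A2, and Arl2 the 1 called of 23 Arf and Arl GTPases.

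In 16 lists, with 322 tested members in all, edgeR's quasi-likelihood test called 0 members. Of 10 other demethylases of histone H3, 0 were called (4 at an unadjusted p under 0.05, 0 with DESeq2, 0 with the exact test). Kdm1a, the flavin-dependent demethylase LSD1, had 59.8, 51.3, 55.99 and 62.1 normalized CPM in Ctrl 1 to 4 and 39.5, 39.4, 41.2 and 48.98 in shRNA 1 to 4, without overlap and short of 1.5 times (adjusted p = 0.0236). Of 14 methyltransferases of the same residues, the smallest adjusted p was that of Ehmt2, which encodes G9a (log2 fold change -0.32, adjusted p = 0.186; 1 at an unadjusted p under 0.05, 0 with DESeq2, 0 with the exact test). Of the opioid receptor genes, 3 were tested and 0 called (0 at an unadjusted p under 0.05). Oprm1, the receptor on which morphine acts, had 2.796, 4.48, 2.43 and 2.25 in the controls and 0.306, 3.597, 0.430 and 0.134 after knockdown. Only shRNA 2 was among the controls (log2 fold change -1.40, adjusted p = 0.322, and -3.23 without shRNA 2, adjusted p = 0.0511). Oprk1 was at 1.01 ± 0.462 and 1.22 ± 0.565 and Oprl1 at 34.1 ± 7.94 and 34.1 ± 8.105 (SD, n = 4 each), with adjusted p-values of 0.740 and 0.997.

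The other lists without a call included genes of neuronal activity, read in tissue taken directly after the test of place preference. Of 25 immediate early genes, which neurons turn on within minutes of activity, 0 had an unadjusted p under 0.05, and the smallest adjusted p was that of Btg2 (0.371). Of 12 GABA-A receptor subunits, Gabrg1 had the smallest adjusted p (0.109; 1 at an unadjusted p under 0.05, 0 with DESeq2, 0 with the exact test), and it was called without Ctrl 2 (adjusted p = 0.0297). Of 17 dopamine, serotonin and adrenergic receptor genes (median -0.39), it was the serotonin-gated channel gene Htr3a (0.151; 2 at an unadjusted p under 0.05, 0 with DESeq2, 0 with the exact test). Oligodendrocyte precursor genes had 14 tested members with Lhfpl3 first (adjusted p = 0.0838; 1 at an unadjusted p under 0.05, 0 with DESeq2, 0 with the exact test). Striatal neuron genes had 14 with the homeobox gene Meis2 first (log2 fold change -0.49, adjusted p = 0.0230; 2 at an unadjusted p under 0.05, 0 with DESeq2, 0 with the exact test), a gene called without shRNA 4 (adjusted p = 0.00603). Erythrocyte genes had 6 with the globin gene Hbb-bt first (adjusted p = 0.459; 0 at an unadjusted p under 0.05, 0 with DESeq2, 0 with the exact test), a gene whose reads near-identical copies may share. Mitochondrial aminoacyl-tRNA synthetases had 20 with Fars2 first (adjusted p = 0.0935; 5 at an unadjusted p under 0.05, 0 with DESeq2, 0 with the exact test). Proteasome subunits had 39, with a fold change short of 1.5 in Psmd7 (adjusted p = 0.0207; 5 at an unadjusted p under 0.05, 0 with DESeq2, 0 with the exact test), which was called without Ctrl 2 (adjusted p = 0.00178). Among 25 cholesterol synthesis genes the regulator Srebf2 was the first (log2 fold change -0.50, adjusted p = 0.0268; 5 at an unadjusted p under 0.05, 1 with DESeq2, 1 with the exact test). Of 12 housekeeping genes the glycolytic enzyme gene Pgk1 had the smallest adjusted p (0.0655; 4 at an unadjusted p under 0.05, 0 with DESeq2, 1 with the exact test).

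The median change differed between classes of transcript length. The 14160 known genes with a length were placed in 5 classes of about equal size. The median log2 fold change was 0.11 in the shortest class, up to 1539 bases, 0.07 and 0.04 in the next, and -0.01 and -0.02 in the longest classes. Higher genes made up 6.07% of the shortest class and 1.38% of the longest, while lower genes made up 1.02% and 1.59%. A fit of known genes alone called 424, 258 higher and 166 lower. The same kind of fit with the trend removed from the counts called 421, 270 higher and 151 lower, of which 404 were among the 657. Short reads had been removed by the authors, which limits short transcripts in both groups, and the cause of the trend was not tested.

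**Figure D4:**
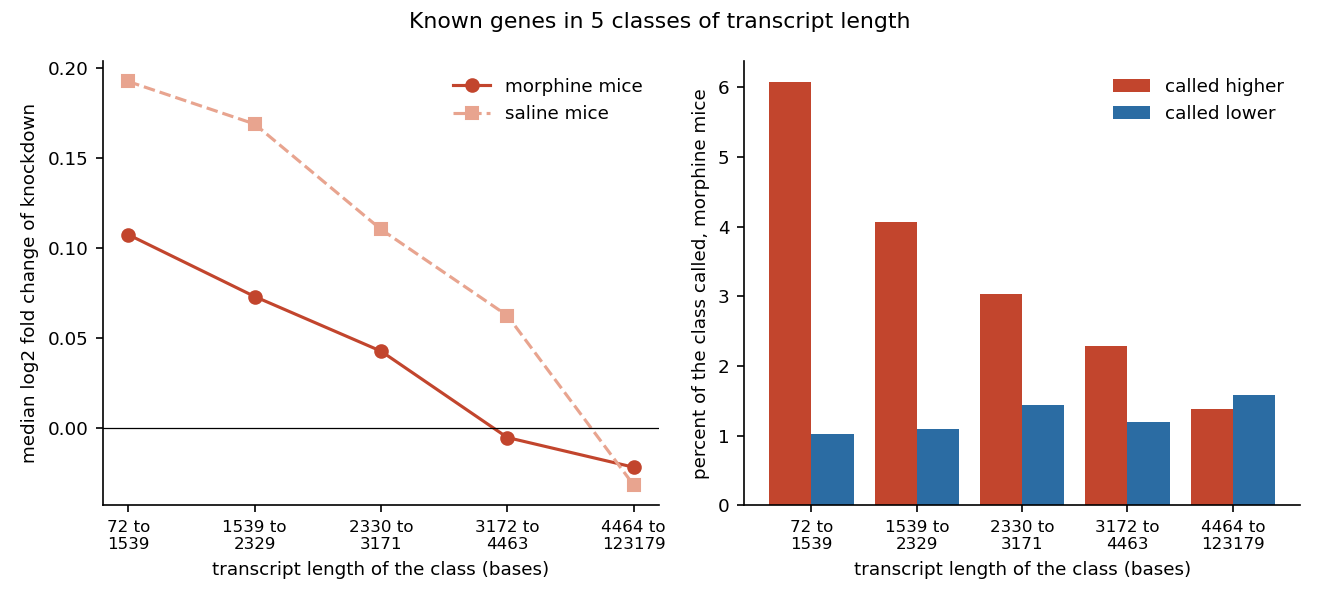
Known genes in 5 classes of transcript length in bases (horizontal axes). On the left is the median log2 fold change of knockdown in the morphine mice (red circles) and saline mice (pale squares), on the right the percent of each class called higher (red) and lower (blue) in the morphine mice, which falls from 6.07% to 1.38% for higher genes.

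The same virus had also been compared in saline mice, 5 Kdm7a-shRNA + Saline against 3 Ctrl + Saline, animals that are not shared with the morphine groups. There 1697 known genes were called (11.98%), 1275 higher (9.003%) and 422 lower (2.98%), and among all entries 7.43% were higher and 9.31% lower. Both comparisons called 351 genes in the same direction, 275 higher and 76 lower, and 9 in opposite directions. The 351 are 53.4% of the morphine calls and 20.7% of the saline calls. Of the 657 genes called under morphine, 606 (92.2%) had the same sign under saline, as did 65.3% of all known genes tested. The median log2 fold change of the higher genes was 1.22 under morphine and 1.00 under saline, and that of the lower genes -0.82 and -0.45. Some lists had similar medians in both: disease-associated microglia genes had a median of 1.75 under saline with 21 of 22 called higher, integrated stress response genes 0.53 with 16 of 35, and neuropeptide precursors -0.60 with 9 of 20 called lower. Others did not. Erythrocyte genes had a median of 0.29 with 0 called under morphine (edgeR quasi-likelihood, 0 at an unadjusted p under 0.05, 0 with DESeq2, 0 with the exact test) and -1.34 with 5 of 6 called lower under saline, and the interaction called none of them. Mitochondrially encoded genes had a median of 0.41 under morphine and -0.20 under saline, where 2 were called lower. The interaction of mt-Nd4 was 1.52 (adjusted p = 0.0675) and did not pass.

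Whether knockdown acted differently under morphine and under saline was asked by the interaction term, which called 16 known genes (0.113%), 2 higher (0.0141%) and 14 lower (0.0989%), and no other entry (0.0850% of all, 0.0106% higher and 0.0744% lower), while 1677 had an unadjusted p under 0.05. All 16 had opposite signs in both comparisons. The count was 1 without Ctrl 1, Ctrl 4 or shRNA 1, 2 without shRNA 4, 4 without Ctrl 2, 5 without shRNA 3, 37 without Ctrl 3 and 101 without shRNA 2, and DESeq2 gave 205. Tmem70, an assembly factor of the ATP synthase, had 62.5, 46.2, 46.7 and 72.4 normalized CPM in Ctrl + Morphine and 27.7, 53.7, 34.3 and 33.4 in Kdm7a-shRNA + Morphine mice. In saline mice it had 28.02, 19.4 and 23.7 without and 64.8, 67.7, 72.9, 77.7 and 65.9 with the knockdown. Knockdown mice were thus higher under saline and mostly lower under morphine (interaction -2.17, adjusted p = 0.00705). Creld2 had an interaction of -1.77 (adjusted p = 0.0182) and Saraf, an inhibitor of store-operated calcium entry, of -1.16 (adjusted p = 0.0394). Slc25a12, the aspartate-glutamate carrier of neurons, had 86.3, 128, 115 and 67.5 in Ctrl + Morphine and 177, 165, 117 and 149 in Kdm7a-shRNA + Morphine mice. Under saline it was at 150.3 ± 42.6 without and 54.5 ± 13.5 with the knockdown (SD, n = 3 and 5), so that knockdown mice were lowest there (interaction 2.08, adjusted p = 0.0230). Ssr3 was called higher under morphine (log2 fold change 1.33) and lower under saline (-0.98), where the groups overlapped. Its interaction was 2.30 (adjusted p = 0.0230).

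**Figure D5:**
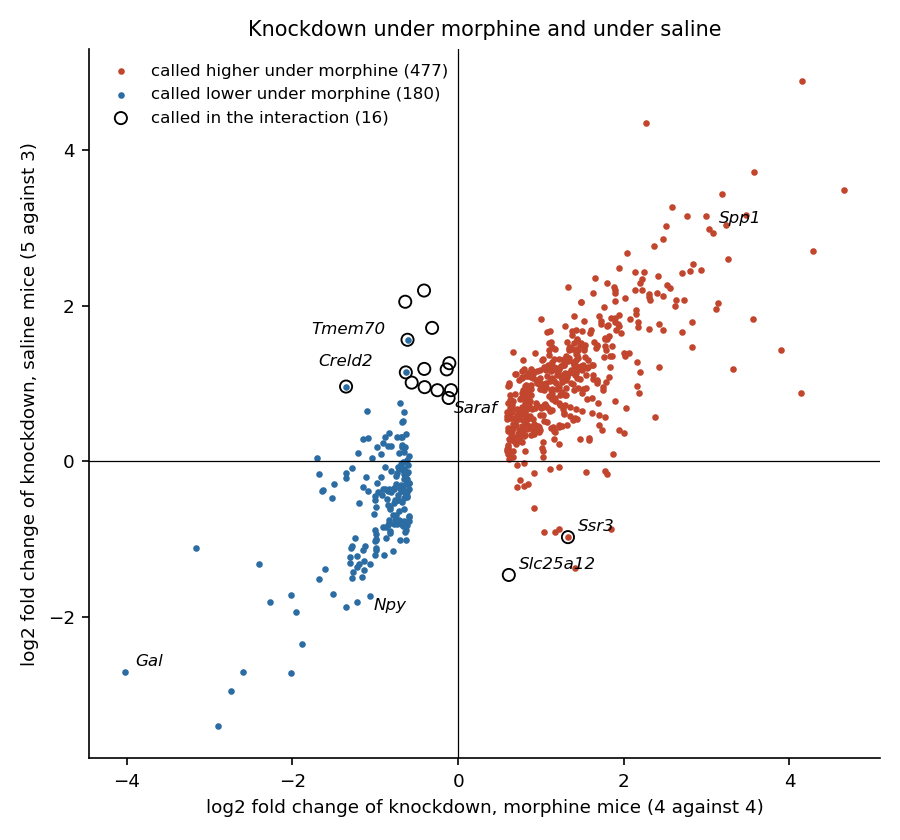
Log2 fold change of knockdown in the morphine mice (horizontal axis, 4 against 4) and in the saline mice (vertical axis, 5 against 3) for the 657 known genes called under morphine, each a point, red higher and blue lower. Open circles are the 16 genes called in the interaction, 4 of them among the 657, which lie in the quadrants of opposite sign; 606 of the 657 genes lie in the quadrants of the same sign.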

How the data were processed

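Medial prefrontal cortex RNA of 16 mice had been read by PCR-amplified Nanopore cDNA sequencing. The authors filtered reads by quality and a minimum length, removed ribosomal RNA, mapped full-length reads with minimap2 to the mouse mm10 genome, built consensus transcripts, and deposited the number of reads per gene as counts. The deposited CPM are these counts divided by the column total and scaled, and they were not used further. The counts of all 16 mice were fitted together with edgeR 4.0.16 in R 4.3.3 (filterByExpr, TMM, quasi-likelihood F test, 4 groups), p-values were adjusted by Benjamini-Hochberg over 18826 entries, and known genes were then selected. The biological coefficient of variation was 0.215, so that counting error is small beside differences between mice for all but rarely read genes. The fit was checked on simulated data. Alternatives were other size factors and filters, DESeq2 1.42.0, the edgeR exact test and the 8 morphine mice alone. Further ones were known genes alone, the same with a lowess trend with transcript length removed, and a block for the replicate number. Each morphine mouse was also left out in turn. Shares of counts were compared by a two-sided exact permutation test. Knockdown and control mice of 1 number correlated at 0.0820, -0.0398, 0.0190 and -0.0330 after group means were removed, so numbers were not taken as pairs.

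Named genes are the study's targets, the 10 first of each direction by adjusted p, up to 5 called members of each list by adjusted p (the first member where 0 were called), and 5 of the interaction. The comparison and the lists were chosen with earlier results of these data known. Promoter positions came from RefSeq (GRCm38.p6) and gene positions from GENCODE vM21, both of the mm10 assembly. Some list members are not reported here.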

Additional observations from a re-analysis of the deposited data

Results flagged for a closer look

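A value was flagged when a Dixon test set the highest or lowest of the 4 mice of a group apart from the other 3, a rule that chance meets in about 1 of 20 groups. In 242 groups of 121 genes there were 18 flags, and 9 of them were for shRNA 3. In normalized CPM these 9 were Atf3 at 14.0, Lpl at 41.5, Trem2 at 1046, Gpr34 at 53.6, Tyrobp at 2735, Fcrls at 1309, Itm2a at 93.5, Mrps6 at 86.8 and Nfkbia at 55.8, each the highest of its group. Among the other knockdown mice, Nars was highest in shRNA 1 at 298, and Oprm1 at 3.60 and Lhfpl3 at 8.63 were highest in shRNA 2. Among the controls, Tyrobp at 187, Fcrls at 100.3 and Gipr at 2.45 were lowest in Ctrl 2, AW146154 at 1.58 was lowest in Ctrl 3, where Pecam1 at 21.9 was highest, and Syt2 at 1.18 was lowest in Ctrl 4.

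The interaction flagged 5 named genes whose log2 fold change differed between morphine and saline. The difference was -2.17 for Tmem70 (adjusted p = 0.00705), -1.77 for Creld2 (adjusted p = 0.0182), 2.08 for Slc25a12 (adjusted p = 0.0230), 2.30 for Ssr3 (adjusted p = 0.0230) and -1.16 for Saraf (adjusted p = 0.0394).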

How the results depend on the processing

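The count of known genes called ran from 218 (without Ctrl 4) to 1194 (without shRNA 4) when 1 mouse was left out, and that of all entries from 568 to 2066. Among other alternatives, it was 353 for known genes and 685 for all entries with the 8 morphine mice alone, 424 with known genes only and 421 when the length trend was also removed from that fit, and 697 entries were called with at least 10 counts in every mouse. DESeq2 called 878 known genes and 1697 entries, and the exact test 877 and 1829. The interaction count of 16 was 205 with DESeq2, 30 without a filter, 15 with known genes only and 6 when the length trend was also removed, and 1 to 101 without 1 mouse. With a block for the replicate number it was 6, and 709 known genes were called for knockdown under morphine. The saline count ran from 1575 to 1918 without 1 morphine mouse. No saline mouse was left out, so its dependence on single saline mice was not tested.

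Kdm7a passed the threshold with DESeq2 (-0.66), the exact test (-0.68) and library size only (-0.77), and ran from -0.80 to -0.47 without 1 mouse. Fscn1 ran from -1.07 to -0.81 and was called each time. Of 119 named genes with 2121 values, alternatives reversed 3 and leaving out 1 mouse reversed 8. Oprl1 was 0.0148 with DESeq2, 0.0134 with RLE factors and 0.00738 without a filter. It ran from -0.16 to 0.14 without 1 mouse, being 0.03 without Ctrl 1, 0.14 without Ctrl 2, 0.03 without shRNA 2 and 0.12 without shRNA 3. Phf8 ran from -0.20 to 0.04, with 0.02 without Ctrl 2 and 0.0391 without shRNA 1. Tmem119 ran from -0.10 (without shRNA 3) to 0.68 and Hbb-bt from -0.0560 (without shRNA 3) to 0.66. Of the named genes' values, 85 were weaker and 3 stronger under other alternatives, and 182 weaker and 6 stronger without 1 mouse. For the 5 named interaction genes, 17 values were weaker and 23 the same without 1 mouse. Under other alternatives, 1 of their values was weaker and 39 were the same. List medians moved in 14 of 520 and in 6 of 416 values. The share of counts of mitochondrially encoded genes differed by 0.308 to 0.475 points, that of ribosomal protein genes by 0.880 to 1.43 (for both, adjusted p = 0.0429 without shRNA 3, 0.0857 to 0.129 without each other mouse and 0.0571 as a percent of known gene counts) and that of assembled loci by -1.38 to -0.141. The cause of these dependences was not tested. Depth limits genes with few counts, such as Gal, Steap4 and Slc29a4.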
